A study of Drosophila melanogaster and Drosophila simulans and Drosophila yakuba with 8 samples.

Results

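The metallothionein genes MtnA, MtnB, MtnC, MtnD and MtnE of Drosophila melanogaster were followed in testis mRNA. The 5 genes were taken by their current symbols. The family was selected on the read counts and RPKM of MtnD, which had higher values in both knockdowns than in wildtype, and its 2 contrasts with wildtype are therefore described here with no test. Of the 5 members, 4 were among the 15178 gene identifiers listed for the species, and 3 of them were among the 10223 genes with a mean of at least 1 RPKM (reads corrected for gene length and for the library's mapped reads) that were tested. MtnE was not analysed here, and MtnB stayed under the filter.

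Metallothioneins are small, cysteine-rich proteins that bind copper, zinc and cadmium ions and buffer their free concentration in the cell. In flies their transcription is induced by metal load through the zinc-finger factor MTF-1, which binds metal response elements in their promoters. They are best known from the gut, where MtnA expression marks copper accumulation, and the members differ in how strongly copper and cadmium induce them.

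The groups held 2 libraries each, from dissected testis of adults aged 1 to 7 days that carry the strain label Oregon-R. The Zeus knockdown carried nosGal4 and UAS-Zeus-RNAi, the Caf40 knockdown carried nosGal4 and UAS-Caf40-RNAi, and the wildtype group has no construct in its labels. The nos-Gal4 driver is active in the germline. The targeted genes are named Rcd-1 (Caf40), a member of the CCR4-NOT deadenylase complex, and Rcd-1r (Zeus), the retrocopy of Rcd-1, in the current annotation. No driver-only library was analysed here, so an effect of the driver or of a construct's genetic background and an effect of the knockdown cannot be told apart. Separate flies are not stated for the libraries of a group, and p-values therefore measure the spread between these libraries, which may be technical. In whole testes, fewer cells of a type and less RNA per cell cannot be told apart.

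Gene reads per library numbered between 12662615 and 24429722. The targets were low in their own knockdowns: Rcd-1r measured 4.05 and 4.04 RPKM in Zeus knockdown testes, 134.5 and 113.8 RPKM in Caf40 knockdown testes, and 22.2 and 26.4 RPKM in wildtype. Rcd-1 measured 79.3 and 77.9 RPKM in Zeus knockdown testes, 25.7 and 23.3 RPKM in Caf40 knockdown testes, and 98.2 and 95.1 RPKM in wildtype. The copy that was not targeted thus stood above wildtype for Rcd-1r and below it for Rcd-1, the second without passing the threshold (edgeR adjusted p = 0.197). Many genes passed the edgeR quasi-likelihood test at an adjusted p under 0.05: 36.8% of genes for Zeus knockdown minus wildtype, 80.5% for Caf40 knockdown minus wildtype and 83.5% for Zeus minus Caf40 knockdown. The first of these shares depended on single libraries, since 3761 genes passed with all of them, 2127 and 1625 without Zeus knockdown replicate 1 and 2, and 2107 and 1824 without wildtype replicate 1 and 2. That share also depended on the third group, since 5350 genes passed with the Zeus knockdown and wildtype fitted alone. The 3 groups shared 1 estimate of the spread. The chi-square per degree of freedom between the 2 libraries of a group was 2.03 in the Zeus knockdown, 13.8 in the Caf40 knockdown and 4.96 in wildtype. The split by direction depended on scaling. Of the calls for Zeus knockdown minus wildtype, 45.6% were higher, against 21.9% with scaling by library total and 63.5% with equal median RPKM. The share was 52.0% for Caf40 knockdown minus wildtype (61.1% by library total and 39.5% with equal medians). It was 48.1% for Zeus minus Caf40 knockdown (36.5% by library total and 61.1% with equal medians).

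MtnA was among the most abundant testis transcripts, MtnC and MtnD were low, and MtnB was at the limit of detection. MtnA held between 98.8% and 99.8% of the reads counted on these 4 genes in every library, so their summed level followed it. That sum was 1036 and 950 RPKM in Zeus knockdown testes, 2547 and 2700 RPKM in Caf40 knockdown testes, and 1156 and 1548 RPKM in wildtype. All 5 genes lie on chromosome arm 3R, and each current transcript has 2 exons. The lengths listed by the authors were 343 bases for MtnA, 301 for MtnB, 132 for MtnC and 215 for MtnD. None of the 4 overlaps another annotated gene, and MtnD and MtnE are neighbours on opposite strands. Members of this family are related in sequence, and the assignment of reads that match several of them is not stated in the labels or headers.

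**Figure D1:**
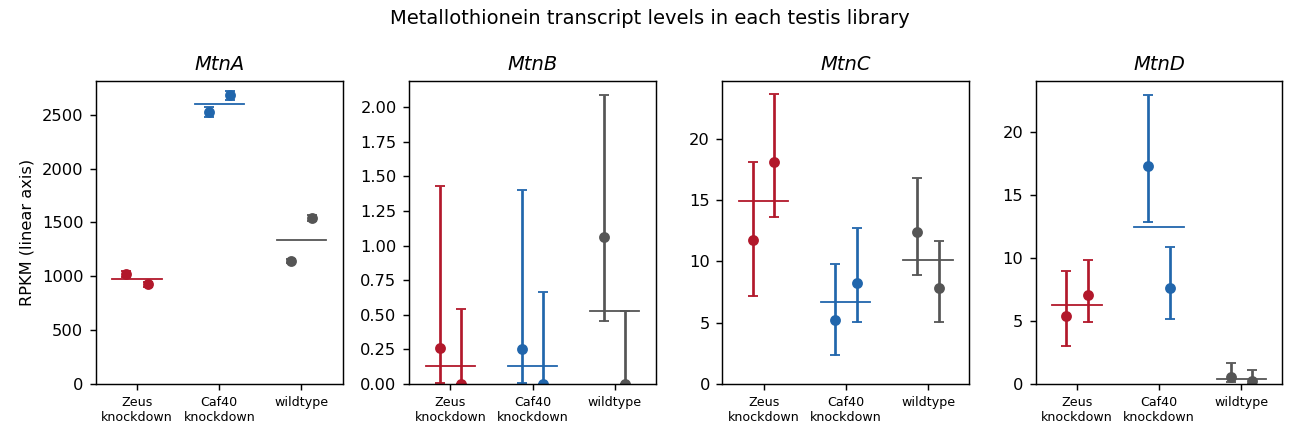
RPKM of MtnA, MtnB, MtnC and MtnD on linear axes from 0 in each library of the Zeus knockdown, Caf40 knockdown and wildtype. Points are libraries with exact 95% Poisson intervals of their reads, and short lines are group means. MtnA lies between 2524 and 2684 RPKM in Caf40 knockdown testes, above all other libraries, and MtnD lies at or under 0.556 RPKM in both wildtype libraries.

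MtnA (FBgn0002868), the copper-inducible member most used as a metal reporter in flies, was higher in Caf40 knockdown testes than in both other groups. It measured 1018 and 925 RPKM in Zeus knockdown testes, 2524 and 2684 RPKM in Caf40 knockdown testes, and 1142 and 1540 RPKM in wildtype. No library of one group fell within the range of another, and the wildtype pair was the most uneven. The Poisson intervals of the libraries did not overlap within any of the 3 groups. By RPKM, MtnA ranked 74 and 83 among the 15178 listed genes in Zeus knockdown testes, 11 and 11 in Caf40 knockdown testes, and 59 and 36 in wildtype.

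MtnA rose in Caf40 knockdown testes relative to wildtype by 1.66-fold (log2 fold change 0.73, SE 0.13, 95% interval of the fold 1.36 to 2.02, edgeR adjusted p = 0.000130). Of all genes tested, 28.5% had a higher log2 fold change in that contrast. MtnA was the 1 member called among the 2 that could be tested there, beside a background of 80.5%. Scaling moved the fitted value to 0.95 by library total and 0.42 with equal medians, both past the threshold (edgeR adjusted p = 1.15e-07 and 0.0102). Relative to the median of all genes it was 0.67 under all 3 scalings. Scaling shifts all genes by nearly the same amount, so that value does not test the choice of scaling.

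For Zeus knockdown minus wildtype, the log2 fold change of MtnA was -0.31 (SE 0.13) and did not pass the threshold (edgeR adjusted p = 0.0755). The same was true of MtnC, so 0 of 2 members were called by edgeR beside a background of 36.8%, although both had an unadjusted p under 0.05 (0.0318 for MtnA and 0.0423 for MtnC). DESeq2 called 0 of 2, and limma called MtnA alone. The MtnA call turned on the settings. It passed with scaling by library total (-0.48, edgeR adjusted p = 0.00170). With the 2 groups fitted alone it also passed, at nearly the same value (-0.31, edgeR adjusted p = 0.00537), so the call depended on the Caf40 knockdown libraries in the shared spread. The value was -0.51 without wildtype replicate 1 and shrank to -0.08 without wildtype replicate 2. Between the knockdowns, MtnA had a log2 difference of -1.05, Zeus minus Caf40 (SE 0.13, edgeR adjusted p = 3.57e-06). Its level was 2.06-fold higher in Caf40 knockdown testes, and 76.1% of all genes had a higher log2 difference.

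None of the 62158 reads counted on MtnA over the 6 libraries crossed an exon junction. Among 5836 genes whose current transcripts all have at least 2 exons and that held at least 1000 reads, 37.8% also had 0 junction reads. Of the 185 such genes with at least as many reads as MtnA, MtnA included, 74 had 0.

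MtnB (FBgn0002869), a member known for its response to cadmium, was barely detected. It had 1 and 0 reads in Zeus knockdown testes, 1 and 0 reads in Caf40 knockdown testes, and 8 and 0 reads in wildtype. All 8 wildtype reads came from replicate 1, at 1.06 RPKM, and the other wildtype library had none. The exact 95% Poisson interval of a count of 0 reached 0.544 RPKM in Zeus knockdown replicate 2, 0.665 RPKM in Caf40 knockdown replicate 2 and 0.527 RPKM in wildtype replicate 2. The pooled ratio of MtnB to wildtype was 0.170 in Zeus knockdown testes, with an exact 95% counting interval of 0.00384 to 1.27, and 0.191 in Caf40 knockdown testes (0.00431 to 1.43). Both intervals include 1, so no difference was detectable at this depth.

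MtnC (FBgn0038790), a member induced by copper, had its highest level in Zeus knockdown testes and its lowest mean in Caf40 knockdown testes. Reads numbered 20 and 54 in Zeus knockdown testes, 9 and 20 in Caf40 knockdown testes, and 41 and 24 in wildtype. The corresponding RPKM values were 11.7 and 18.1 in Zeus knockdown testes, 5.17 and 8.22 in Caf40 knockdown testes, and 12.4 and 7.82 in wildtype. Both Zeus knockdown libraries exceeded both Caf40 knockdown libraries, whereas wildtype overlapped each knockdown. No junction read was counted on MtnC.

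MtnC was 2.89-fold higher in Zeus than in Caf40 knockdown testes (log2 difference 1.53, SE 0.39, 95% interval of the fold 1.62 to 5.17, edgeR adjusted p = 0.00213). This difference rested on Zeus knockdown replicate 2, without which it was 1.13 with an adjusted p of 0.0620. Against wildtype the log2 fold change was 0.76 (SE 0.34, edgeR adjusted p = 0.0941) in Zeus knockdown testes and -0.78 (SE 0.40, edgeR adjusted p = 0.0895) in Caf40 knockdown testes. Neither passed the threshold, although Zeus minus wildtype passed with the 2 groups fitted alone (0.77, adjusted p = 0.0469) and Caf40 minus wildtype with equal medians (-1.08, adjusted p = 0.0225) and without Caf40 or wildtype replicate 2 (adjusted p = 0.0454 and 0.0425). Both values moved with single libraries, between 0.36 and 1.14 for Zeus and between -1.24 and -0.39 for Caf40.

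The 2 tested members that passed between the knockdowns, MtnA and MtnC, thus differed in opposite directions, beside a background of 83.5% of genes called, 40.2% higher and 43.3% lower in Zeus. The RPKM ratio of MtnA to MtnC was 86.9 and 51.0 in Zeus knockdown testes, 488 and 327 in Caf40 knockdown testes, and 92.3 and 197 in wildtype. Both Caf40 knockdown libraries lay above all 4 others in this ratio.

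MtnD (FBgn0053192), a small metallothionein that lies beside MtnE, was almost silent in wildtype testis and detected in every knockdown library. It had 15 and 34 reads in Zeus knockdown testes, 49 and 30 reads in Caf40 knockdown testes, and 3 and 1 reads in wildtype. The levels were 5.40 and 7.01 RPKM in Zeus knockdown testes, 17.3 and 7.57 RPKM in Caf40 knockdown testes, and 0.556 and 0.200 RPKM in wildtype. The 4 knockdown libraries lay well above the wildtype pair, and both wildtype values were at or under the level of 3 reads. Within the Caf40 knockdown the libraries differed 2.28-fold, beyond their Poisson intervals.

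The fitted log2 difference of MtnD from wildtype was 4.10 in Zeus knockdown testes and 4.62 in Caf40 knockdown testes. These are the values that chose the gene, they share the same wildtype libraries, and only 23 and 16 of the 10223 genes had a higher one. With reads pooled by group, the ratio to wildtype was 16.7 for the Zeus knockdown and 30.2 for the Caf40 knockdown. Both ratios are imprecise because wildtype held 4 reads in all. On the log2(RPKM + 1) scale the differences were smaller, at 2.39 for Zeus and 3.20 for Caf40, since the added 1 exceeds the wildtype level.

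**Figure D2:**
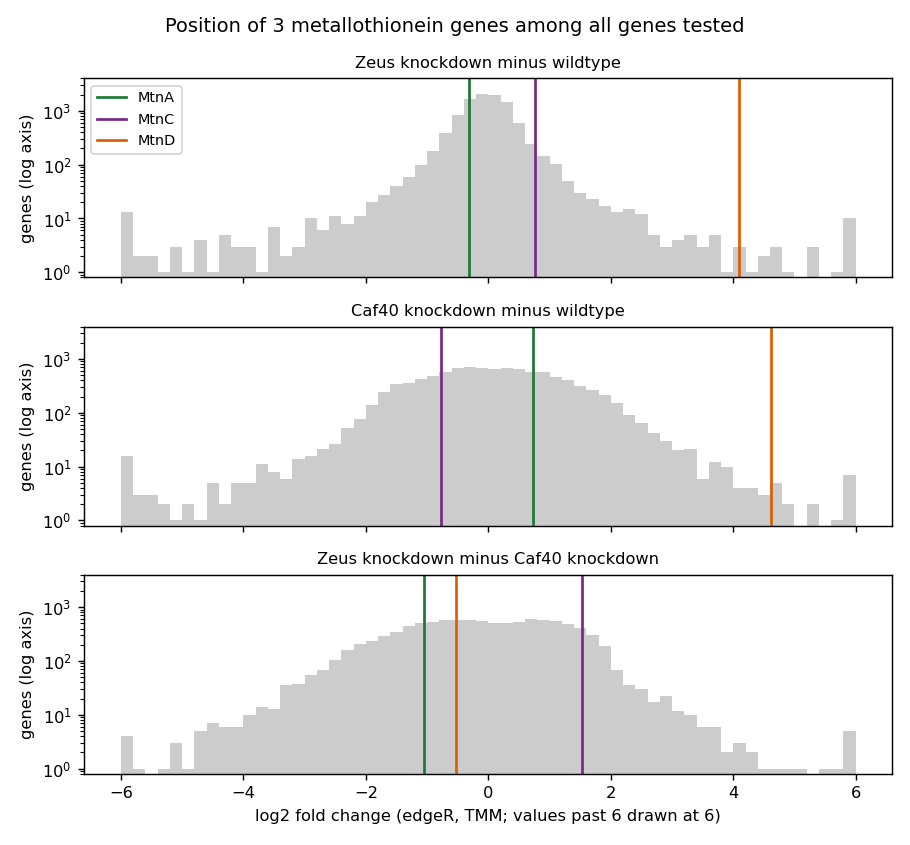
Histograms of the fitted log2 fold change of all 10223 tested genes in 3 contrasts (x axis, log2 fold change; y axis, number of genes on a log scale), with lines at MtnA, MtnC and MtnD. MtnD lies in the upper tail of both contrasts with wildtype, at 4.10 and 4.62, whereas MtnA and MtnC lie nearer the centre.

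The difference of MtnD between the knockdowns did not pass the threshold. The log2 difference, Zeus minus Caf40, was -0.52 (SE 0.38, edgeR adjusted p = 0.216), and the 95% interval of the fold ran from 0.394 to 1.23. The value depended on the uneven Caf40 pair: it was 0.10 without Caf40 knockdown replicate 1 and -1.01 without replicate 2 (edgeR adjusted p = 0.0168). It also passed the threshold with scaling by library total, at -0.91 (adjusted p = 0.0359). Across the 3 contrasts, the libraries of the groups did not overlap in RPKM for 2 of 3 tested members between Zeus knockdown and wildtype (background 79.9%). The count was 2 of 3 between Caf40 knockdown and wildtype (90.1%) and 3 of 3 between the knockdowns (92.7%). MtnD, chosen on the contrasts with wildtype, is among the members counted there.

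MtnD was the member with junction reads. These were 3 and 1 in Zeus knockdown testes, 1 and 4 in Caf40 knockdown testes, and 0 and 0 in wildtype, so 9 of its 132 reads crossed its exon junction. The junction reads thus appeared in all 4 knockdown libraries. They are part of the read counts that chose the gene. Wildtype held 4 MtnD reads in all, too few to compare junction reads with the knockdowns.

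The order of the members by level differed between the groups at its lower end. MtnA was first in every library. In Zeus knockdown testes MtnC followed and exceeded MtnD in both libraries, by 2.17-fold and 2.59-fold in RPKM. In Caf40 knockdown testes MtnC and MtnD overlapped, with ratios of MtnC to MtnD of 0.299 and 1.09, and their order is not set beyond the spread. In wildtype MtnC was 22.3-fold and 39.1-fold above MtnD, and MtnD and MtnB overlapped. These levels are per listed length, and the 132 bases of MtnC are the shortest.

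Other genes moved beside MtnD. The gene white, an ABC transporter of eye pigment precursors and a common transgene marker, measured 88.1 and 79.1 RPKM in Zeus knockdown testes, 70.7 and 79.6 RPKM in Caf40 knockdown testes, and 4.91 and 4.55 RPKM in wildtype. Its 4 knockdown libraries, like those of MtnD, all exceeded wildtype.

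The 3 named genes nearest to each member in profile over the 6 libraries were found by Euclidean distance between centred log2(RPKM + 1) values among 8969 genes. For MtnA they were ced-6, an adaptor of engulfment receptors, Mfe2, a peroxisomal enzyme of fatty acid breakdown, and cer, an inhibitor of cysteine proteinases, at distances of 0.0737, 0.184 and 0.207. A close profile was common for MtnA, since 1926 genes had a Pearson r of at least 0.95 with it. For MtnC they were CG11300, gsb-n, a paired-domain transcription factor, and Ilp8, an insulin-like peptide, at 0.308, 0.437 and 0.484, with 5 genes at that r.

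The nearest profiles to MtnD were those of CG31300, mt:CoII, a mitochondrially encoded cytochrome c oxidase subunit, and hoka, a septate junction protein. Their distances were 0.558, 0.970 and 1.09, with a Pearson r of 0.990, 0.973 and 0.974. Distance grows with the range of a member's profile, so it is not compared between members. CG31300 measured 9.35 and 11.9 RPKM in Zeus knockdown testes, 20.9 and 15.0 RPKM in Caf40 knockdown testes, and 1.51 and 1.36 RPKM in wildtype. The transcript mt:CoII measured 3.95 and 3.69 RPKM in Zeus knockdown testes, 5.65 and 4.91 RPKM in Caf40 knockdown testes, and 0.116 and 0 RPKM in wildtype. Like MtnD, both were low in the wildtype pair and highest in Caf40 knockdown replicate 1. The wildtype values of mt:CoII are at or near 0. The treatment of multiply matching reads is not stated, so the RPKM of mt:CoII may not be its level in testis. At an r of at least 0.95 there were 49 genes for MtnD. All libraries are shared by the genes compared, so these distances describe the 6 libraries only.

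**Figure D3:**
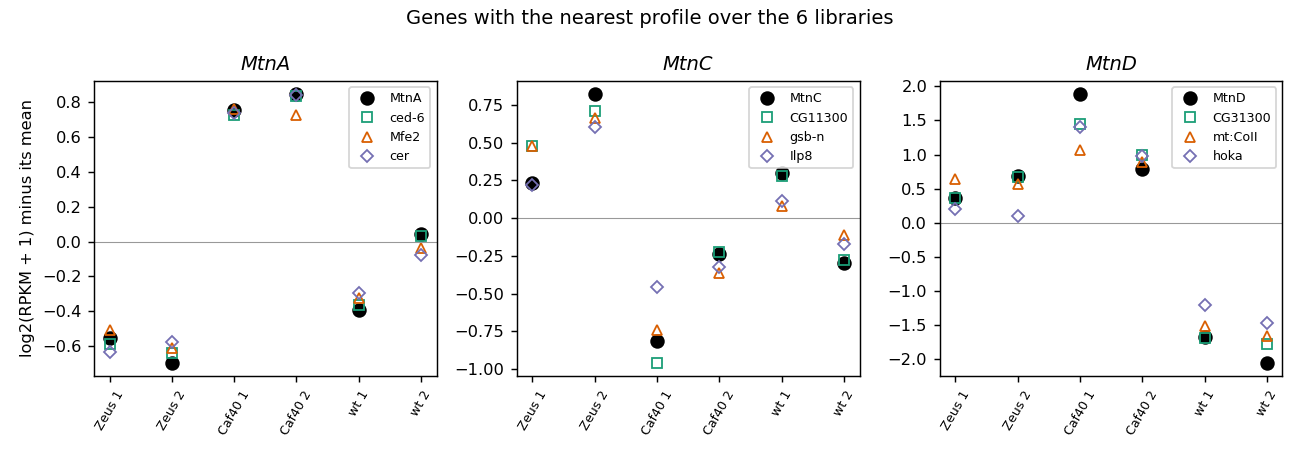
Centred log2(RPKM + 1), each gene minus its own mean over the 6 libraries, for MtnA, MtnC and MtnD (filled circles) and the 3 named genes nearest to each (open symbols). Libraries run from the Zeus knockdown through the Caf40 knockdown to wildtype (wt). The nearest genes lie at distances of 0.0737 to 0.207 from MtnA and 0.558 to 1.09 from MtnD. Distance grows with the range of a member's own profile, so it does not rank closeness between members.

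The genes that sense and move the metals bound by these proteins were examined next. MTF-1, the transcription factor that induces metallothioneins, measured 2.08 and 2.80 RPKM in Zeus knockdown testes, 8.28 and 6.32 RPKM in Caf40 knockdown testes, and 2.90 and 2.93 RPKM in wildtype. The Caf40 libraries were the highest. It rose in Caf40 knockdown testes by 2.12-fold (log2 fold change 1.08, SE 0.14, edgeR adjusted p = 4.13e-06). In Zeus knockdown testes its log2 fold change was -0.08 (adjusted p = 0.709), and that sign turned with equal medians and without Zeus knockdown replicate 1.

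Among the copper transporters, Ctr1A, the broadly expressed importer, measured 11.5 and 11.3 RPKM in Zeus knockdown testes, 25.8 and 23.9 RPKM in Caf40 knockdown testes, and 13.8 and 16.7 RPKM in wildtype. It rose in Caf40 knockdown testes (log2 fold change 0.47, edgeR adjusted p = 0.000406), a call that was lost with equal medians (0.17). Ctr1C, the copper transporter of the male germline, measured 31.0 and 30.4 RPKM in Zeus knockdown testes, 12.8 and 15.0 RPKM in Caf40 knockdown testes, and 34.1 and 29.1 RPKM in wildtype. It fell in Caf40 knockdown testes (log2 fold change -1.40, edgeR adjusted p = 6.83e-08). Copper importers thus moved in both directions in Caf40 knockdown testes. Ctr1B, the importer regulated by copper, did not pass against wildtype in either knockdown, with log2 fold changes of -0.73 (adjusted p = 0.0758) in Zeus and 0.44 (adjusted p = 0.134) in Caf40.

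ATP7, the copper pump that exports copper and loads it into the secretory pathway, measured 103.9 and 102.1 RPKM in Zeus knockdown testes, 78.7 and 89.5 RPKM in Caf40 knockdown testes, and 88.9 and 92.3 RPKM in wildtype. Its log2 fold change was 0.33 in Zeus knockdown testes (edgeR adjusted p = 0.0266) and -0.33 in Caf40 knockdown testes (adjusted p = 0.0109). Both calls were lost with scaling by library total and without either wildtype library, and the Zeus call also without either Zeus knockdown library.

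The metal handling list, which covers copper, zinc, iron and manganese genes other than the metallothioneins, had 37 genes, of which 31 were listed and 29 tested. In Zeus knockdown testes, 3 of the 29 rose and 1 fell relative to wildtype, beside backgrounds of 16.8% and 20%, with a median log2 fold change of 0.02 beside -0.04 over all genes. The count of 4 was 7 with scaling by library total and 12 when the 2 groups were fitted alone. It was 1 without Zeus knockdown replicate 2, 2 without wildtype replicate 1, and 11 without either Caf40 knockdown library. The gene that fell was Zip89B, a zinc importer, at 0.462 and 0.641 RPKM in Zeus knockdown testes, against 4.11 and 2.89 RPKM in wildtype (log2 fold change -2.46, SE 0.28, edgeR adjusted p = 1.35e-05). Those that rose were Fer3HCH, the mitochondrial ferritin (log2 fold change 0.42, adjusted p = 0.00549), Tsf2, a transferrin of septate junctions (0.30, adjusted p = 0.0230), and ATP7. The Fer3HCH call was lost without Zeus knockdown replicate 2 or wildtype replicate 1. The Tsf2 call was lost without either Zeus knockdown library or wildtype replicate 1, with scaling by library total and in DESeq2.

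In Caf40 knockdown testes, 10 of the 29 metal handling genes rose and 11 fell relative to wildtype, beside backgrounds of 41.9% and 38.6%. Their median log2 fold change was -0.13, beside 0.06 over all genes. ZnT35C, a zinc exporter, fell to 21.5 and 21.6 RPKM in Caf40 knockdown testes, against 50.5 and 50.8 RPKM in wildtype (log2 fold change -1.46, edgeR adjusted p = 4.38e-09). Tsf1, the secreted iron-binding transferrin, was among those that rose, at 548 and 575 RPKM in Caf40 knockdown testes, against 148 and 174 RPKM in wildtype (log2 fold change 1.58, edgeR adjusted p = 9.74e-08). Tsf2 rose as well, by 1.21 on the log2 scale (edgeR adjusted p = 1.73e-08).

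Between the knockdowns, 11 of the 29 metal handling genes were higher and 11 lower in Zeus, beside backgrounds of 40.2% and 43.3%, with a median log2 difference of -0.05 beside -0.08 over all genes. ZnT35C and Ctr1C were higher in Zeus knockdown testes, by 1.48 and 1.51 on the log2 scale, and so was ZnT33D, a zinc transporter family member, by 1.04. Tsf1 was lower, with a log2 difference of -1.90 (edgeR adjusted p = 1.47e-08).

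**Figure D4:**
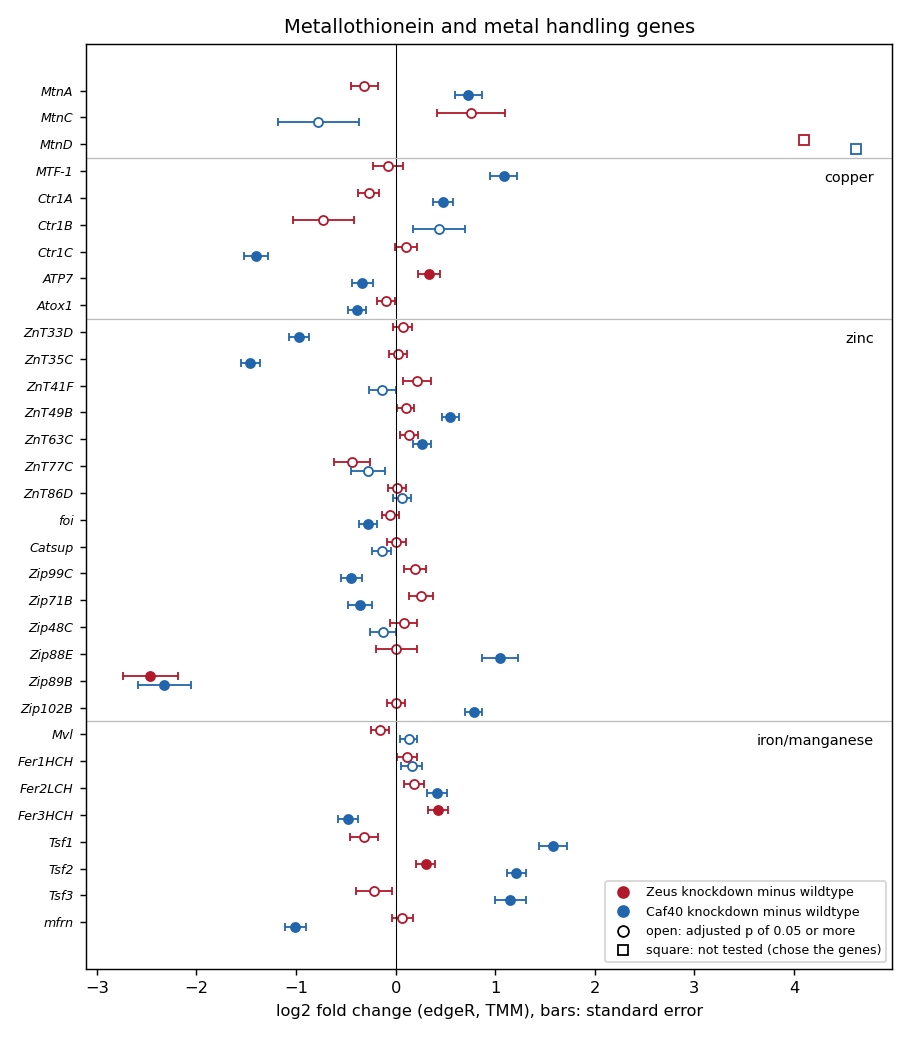
Fitted log2 fold change against wildtype (x axis) with its standard error for the 3 tested metallothionein genes and the 29 tested metal handling genes, in Zeus knockdown testes (upper point of each row) and the Caf40 knockdown (lower point). Filled points passed an adjusted p of 0.05 in edgeR, open circles did not, and open squares mark MtnD, which has no test. In Zeus knockdown testes 4 of the 29 metal handling genes are filled, and in Caf40 knockdown testes 21.

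Metallothioneins also scavenge oxidants, and a list of glutathione and redox genes had 23 members, with 19 listed and 18 tested. Relative to wildtype, 6 rose and 2 fell in Zeus knockdown testes, beside backgrounds of 16.8% and 20%, with a median log2 fold change of 0.17 beside -0.04 over all genes. In Caf40 knockdown testes, 7 rose and 5 fell, beside backgrounds of 41.9% and 38.6%, with a median of 0.20 beside 0.06. Between the knockdowns, 6 were higher and 6 lower in Zeus, beside backgrounds of 40.2% and 43.3%, with a median of 0.15 beside -0.08. The called share of 66.7% lay under the 83.5% of all genes. The Zeus count of 8 was 13 without either Caf40 knockdown library, 3 and 2 without Zeus knockdown replicate 1 and 2, and 3 and 2 without wildtype replicate 1 and 2.

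Trx2, a thioredoxin, measured 23.1 and 26.9 RPKM in Zeus knockdown testes, 93.7 and 87.4 RPKM in Caf40 knockdown testes, and 37.9 and 39.9 RPKM in wildtype. It fell in Zeus knockdown testes (log2 fold change -0.48, edgeR adjusted p = 0.00196) and rose in Caf40 knockdown testes (0.99, adjusted p = 1.24e-07), the same order of group means as for MtnA. GstE1, a glutathione transferase, rose in Caf40 knockdown testes to 70.4 and 73.6 RPKM, against 20.7 and 19.6 RPKM in wildtype (log2 fold change 1.61, edgeR adjusted p = 5.06e-09). Gclc, the catalytic subunit of the enzyme that starts glutathione synthesis, and Trxr2, a thioredoxin reductase, fell in Caf40 knockdown testes by 0.96 and 1.20 on the log2 scale (edgeR adjusted p = 2.25e-07 and 2.10e-06). In Zeus knockdown testes GstD1, TrxT, the testis thioredoxin, and Sod2, the mitochondrial superoxide dismutase, rose by 0.43, 0.44 and 0.36 on the log2 scale (edgeR adjusted p = 0.00337, 0.00555 and 0.00656). These 3 calls were lost without Zeus knockdown replicate 2 or wildtype replicate 1, and those of TrxT and Sod2 also without Zeus knockdown replicate 1 or wildtype replicate 2. Sod2 also missed the threshold with scaling by library total.

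The tissue label was checked against marker lists, since metallothioneins are abundant in gut. All 11 listed germline markers were detected in every library, with summed levels between 7638 and 10778 RPKM, and all 8 cyst and hub markers, between 67.4 and 75.5 RPKM. Most germline markers and some cyst and hub markers changed in Caf40 knockdown testes, where MtnA rose. The spermatogonial gene bam measured 2.17 and 2.24 RPKM in Zeus knockdown testes, 41.0 and 32.1 RPKM in Caf40 knockdown testes, and 3.41 and 3.23 RPKM in wildtype (Caf40 minus wildtype log2 fold change 3.22, edgeR adjusted p = 5.28e-11). In the same contrast the spermatocyte tubulin betaTub85D fell by 1.33 and the sperm chromatin gene ProtB by 1.18 on the log2 scale (edgeR adjusted p = 9.16e-07 and 3.43e-07). The cyst and hub list moved in both directions. Its member tj, a marker of early cyst cells, rose by 1.05 (edgeR adjusted p = 0.000394). Fas3 measured 19.7 and 20.5 RPKM in Caf40 knockdown testes, against 11.5 and 11.4 RPKM in wildtype. By contrast, upd1 measured 3.61 and 3.82 RPKM, against 7.93 and 7.66 RPKM, and CadN 1.48 and 1.53 RPKM, against 3.95 and 4.07 RPKM. The list summed to 70.4 and 67.4 RPKM in Caf40 knockdown testes, against 73.2 and 75.5 RPKM in wildtype. In all, 1 germline marker rose and 8 of the 11 fell, beside backgrounds of 41.9% and 38.6% of all genes. The part of the germline and cyst marker changes in the MtnA result was not tested.

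The 12 listed gut markers summed to 20.6 and 20.4 RPKM in Zeus knockdown testes, 26.7 and 24.2 RPKM in Caf40 knockdown testes, and 18.6 and 13.9 RPKM in wildtype. The digestive proteases Jon99Cii and Jon99Ciii were at 0 in all 6. The order of these sums came from the amylase genes. Amy-p measured 7.80 and 6.66 RPKM in Zeus knockdown testes, 16.7 and 14.3 RPKM in Caf40 knockdown testes, and 4.11 and 3.12 RPKM in wildtype. Amy-d measured 5.54 and 4.84 RPKM in Zeus knockdown testes, 6.74 and 6.49 RPKM in Caf40 knockdown testes, and 2.02 and 1.35 RPKM in wildtype. Other members ran the other way, among them Mal-A6, at 5.48 and 5.85 RPKM in Zeus knockdown testes, 1.46 and 1.91 RPKM in Caf40 knockdown testes, and 6.41 and 6.12 RPKM in wildtype. The gut list therefore did not move as 1 group, and its part in the metallothionein values was not tested.

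The 12 muscle sheath markers summed higher in the knockdowns, at 315 and 339 RPKM in Zeus knockdown testes and 321 and 305 RPKM in Caf40 knockdown testes, against 268 and 264 RPKM in wildtype, and their part was not tested. Act87E alone held between 204 and 252 RPKM of each sum. Not every member was higher: sls measured 3.69 and 3.48 RPKM in Caf40 knockdown testes, against 7.85 and 6.67 RPKM in wildtype. TpnC47D also had a lower mean in Caf40 knockdown testes than in wildtype, and the other members a higher one. The 5 Malpighian tubule markers summed lower in the knockdowns, with 37.7 and 36.5 RPKM in Zeus knockdown testes and 26.6 and 29.7 RPKM in Caf40 knockdown testes, against 43.2 and 50.9 RPKM in wildtype. That sum was almost all Drip, an aquaporin, and each of the other 4 markers stayed under 1 RPKM. The 6 fat body markers summed to between 10.9 and 14.9 RPKM. The 15 accessory gland markers summed to 80.5 and 71.5 RPKM in Zeus knockdown testes, 55.3 and 63.8 RPKM in Caf40 knockdown testes, and 70.41 and 70.39 RPKM in wildtype. Of each sum, Acp95EF alone held between 51.3 and 58.8 RPKM. The 4 hemocyte markers summed to 2.95 and 2.36 RPKM in Zeus knockdown testes, 8.16 and 4.996 RPKM in Caf40 knockdown testes, and 11.2 and 6.28 RPKM in wildtype, and He, a defining marker, was at 0 in 4 of the 6 libraries.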

How the data were processed

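The 6 D. melanogaster libraries were sequenced as single-end testis mRNA, per the labels' protocols. Reads were aligned with Bowtie to dm3, per the submitters' processing notes. Neither the labels nor the headers state the aligner version, the annotation or the treatment of multiply matching reads. A raw read count per gene, its genome and junction parts, the gene's length and an RPKM value were deposited for each library, per the file headers. The deposited RPKM equalled the count divided by length and mapped reads for every gene, within a relative tolerance of 1e-06. The length column is another deposited value, in bases.

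Identifiers were matched to symbols from current tables of BDGP6, which gave 12862 of 15178 a symbol (84.7%). That assembly served for names, chromosome arms, exon numbers and neighbours only.

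Counts were tested with edgeR 4.0.16 in R 4.3.3 (TMM scaling, quasi-likelihood test, two-sided, Benjamini-Hochberg adjustment over 10223 genes, threshold 0.05). The genes had a mean RPKM of at least 1, and the 3 groups shared 1 estimate of the spread. The method was tested on simulated data with the same spread for every gene and group and few genes changed. That test does not cover groups of unequal spread or contrasts in which most genes are called. The smallest p of an exact permutation test on 1 gene, 2 libraries against 2, is 0.333. The standard error was taken as |log2 fold change| divided by the root of F. Intervals on reads are exact, at 95%, and cover counting error only; the floor is 3 reads. RPKM is scaled by mapped reads, so RPKM ratios and TMM fold changes differ somewhat.

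The alternatives were scaling by library total or to equal median RPKM, DESeq2 1.42.0, limma 3.58.1 on log2(RPKM + 1) and log2(RPKM + 0.1), other filters, 2 groups alone, a replicate block and each library left out. Scaling by library total shifted the median log2 fold change of all genes by -0.16 (Zeus minus wildtype), 0.22 (Caf40 minus wildtype) and -0.38 (Zeus minus Caf40), and equal medians shifted it by 0.09, -0.31 and 0.40.

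The members, the lists and the tests were chosen with earlier results of these data known. Named genes are the members, Rcd-1r and Rcd-1, the 3 nearest profiles to each tested member, and the called members of the metal and redox lists with the 4 smallest p in each contrast. MTF-1, Ctr1A, Ctr1B, ATP7 and white are always named.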

Additional observations from a re-analysis of the deposited data

Results flagged for a closer look

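The effect against wildtype differed between the knockdowns for 18 of the metallothionein, metal and redox genes named, by the edgeR test of Zeus minus Caf40 knockdown. MtnD, Zip89B and Sod2 did not pass. ZnT35C, Tsf1, Ctr1C, ZnT33D, Trx2, Gclc, GstE1 and Trxr2 were among those named for a small p in this same contrast. Their passing was therefore fixed in advance and is description only. Among the metallothioneins, the log2 difference was -1.05 for MtnA and 1.53 for MtnC. In the metal handling list it was positive, with the higher level in the Zeus knockdown, for Fer3HCH (0.90), ATP7 (0.67), ZnT35C (1.48), Ctr1C (1.51) and ZnT33D (1.04). It was negative for Tsf2 (-0.91), Tsf1 (-1.90), MTF-1 (-1.16), Ctr1A (-0.75) and Ctr1B (-1.17). In the redox list it was positive for GstD1 (0.49), TrxT (0.56), Gclc (1.23) and Trxr2 (1.53), and negative for Trx2 (-1.47) and GstE1 (-1.17). Adjusted p-values ran up to 0.00240, for Ctr1B, and 83.5% of all tested genes passed in the same contrast.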

How the results depend on the processing

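With 2 libraries a group, MtnC, MtnD and MtnB rest on few reads, and leaving out 1 library moved calls. Genes called for Zeus minus wildtype ranged from 1625 to 5360 when single libraries were left out. Metal handling calls in that contrast were 7 with scaling by library total and with both limma fits, 12 with the 2 groups alone, and 1 to 11 without single libraries; redox calls were 13 with the 2 groups alone and 2 to 13. MtnA, Zeus minus wildtype, was -0.48 by library total, -0.45 in both limma fits, -0.31 with the 2 groups alone (all past the threshold), and -0.51 to -0.084 without single libraries. MtnC was 0.77 for Zeus minus wildtype with the 2 groups alone, and for Caf40 minus wildtype -1.08 with equal medians (both past the threshold) and -1.24 to -0.39 without single libraries, past it without Caf40 or wildtype replicate 2. The MtnC difference between the knockdowns ranged from 1.13 to 2.00. MtnD against wildtype was 2.39 (Zeus) and 3.20 (Caf40) on log2(RPKM + 1), and 3.60 to 4.94 and 4.01 to 5.46 without single libraries. The MtnD difference was -0.91 by library total and -0.81 on log2(RPKM + 1), both past the threshold, and -1.01 to 0.10 without single libraries, reversed at 0.10 without Caf40 knockdown replicate 1. MTF-1, Zeus minus wildtype, reversed to 0.013 with equal medians and ranged from -0.34 to 0.089 without single libraries, reversed without Zeus knockdown replicate 1. Beyond what the construction of a setting shows, the cause was not tested. The rise of MtnA in the Caf40 knockdown and its difference between the knockdowns kept direction and call in every alternative run.

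Replicate numbers did not pair the libraries: deviations of same-numbered libraries correlated at 0.02, -0.04 and -0.05. With the replicate block, 3615 genes were called for Zeus minus wildtype, 8169 for Caf40 minus wildtype and 8479 between the knockdowns, and no metallothionein call changed.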
